A study of Carica papaya with 12 samples.

Results

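The genes described here are papaya genes whose most abundant transcript differed between the varieties ‘RB1’ and ‘1B’ while their total expression was about equal. They were chosen from the deposited scaled abundances, with the mean of each variety and stage taken without ‘RB1’ ripe replicate 3. A gene had to hold at least 2 assembled isoforms and a gene sum of at least 5 scaled TPM in all 4 groups, where TPM is the abundance of a transcript corrected for its length and the depth of the library. Its log2(sum + 1) had to differ by less than 1 between the varieties at each stage. Its highest isoform had to be the same in unripe and ripe fruit of a variety but another one in the other variety. Of 75259 assembled genes, 87 met these conditions, so all 87 were kept, although the choice would have allowed up to 200.

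The study set the red-fleshed ‘RB1’, labelled with a sweet flavour and a floral aroma, beside the yellow-fleshed ‘1B’, labelled with a bitter flavour and a musty aroma. Flesh of unripe and ripe fruit of both varieties was sequenced, with 3 fruits per variety and stage and 12 libraries in all. All fruit came from 1 commercial plantation, received the fungicide prochloraz after harvest and were kept warm for a day, so the groups share that treatment. The study set aside a ripe ‘RB1’ replicate whose profile lay nearer to unripe fruit, without giving its number. Here ‘RB1’ ripe replicate 3 is left out, which leaves 2 ‘RB1’ ripe libraries among the 11 used here, 5 of ‘RB1’ and 6 of ‘1B’. Estimated counts per library ran from 10949263 in ‘RB1’ ripe replicate 2 to 60100478 in ‘1B’ ripe replicate 2, and the 87 genes took 0.639 to 1.12% of them. No pair of the 12 libraries held the same values. The RNA quality scores given by the study were higher in the 3 unripe ‘1B’ samples than in all others. RNA quality therefore cannot be told apart from stage in ‘1B’ or from variety in unripe fruit. The identity of the tissue was not checked against marker genes, since the 87 genes and most other assembled genes carry no name in the tables used here.

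A plant gene can give several messenger RNAs, because introns can be removed in different ways and transcription can start or end at different places. In an assembly made from reads alone, transcripts that share sequence are gathered into 1 gene, and each of its members is called an isoform. Such a set can hold splice forms, and it can also hold the alleles of a gene or close copies of it, since those share long stretches as well. Varieties of a crop can carry different alleles of a gene. Whether the isoforms below are splice forms, alleles or copies cannot be told apart with the values at hand, and “isoform” is used only as the name the assembly gives.

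The conditions were applied in turn. Among the 75259 genes, 19070 had 2 or more isoforms and 3806 of these reached the minimum sum in all groups. Totals were alike at both stages in 2778 of them, and 2332 kept 1 main isoform from unripe to ripe fruit within each variety. The main isoform was the same in both varieties in 2245 genes, called the comparison genes below, and differed in 87, which is 3.73% of the 2332. Without the condition on totals, 40 further genes kept 1 main isoform in each variety and had another one in the other variety, which makes 127 of the 3806 or 3.34%. With no condition on the stages either, the main isoform differed between the varieties in 538 of the 3806 genes in ripe fruit (14.1%), in 422 in unripe fruit (11.1%) and in 241 at both stages.

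The choice depends on 2 scalings. Shares were taken from abundances corrected for length, and with shares of the uncorrected counts 100 genes met the conditions, 58 of them among the 87. Totals were compared on the deposited scaling, where the median difference of log2(sum + 1), ‘1B’ minus ‘RB1’, over the 87 genes was -0.10 in ripe and -0.11 in unripe fruit. In edgeR on the counts, the median log2 ratio of the gene sums, ‘1B’ over ‘RB1’, was -0.70 in ripe fruit, with 74 of the 87 genes below 0, and 0.15 in unripe fruit, with 34 below 0. Over the comparison genes these medians were -0.57 and 0.22, and over all genes tested 0.31 and -0.07. On the counts the totals thus lay mostly lower in ripe ‘1B’ fruit.

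The share of an isoform is its percentage of the gene sum in a library. The distance between 2 sets of shares runs from 0, for identical shares, to 1, for sets with no isoform in common, and it is the part of the gene sum that would have to move to other isoforms. Genes were ranked by the smaller of their distances between the varieties in ripe and in unripe fruit. This smaller distance ran from 0.05 to 0.999 with a median of 0.492. It was at least 0.9 in 9 genes, at least 0.75 in 16, at least 0.5 in 43, at least 0.25 in 59 and at least 0.1 in 81. All differences of shares between the varieties given here chose the genes, so they are a description and carry no test.

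The 87 genes held 1040 isoforms, from 2 to 39 per gene, with a median of 11 against 7 in the comparison genes. A median of 4 isoforms was needed to reach 90% of the gene sum, against 2 in the comparison genes. Their mean sum over the 11 libraries ran from 6.21 to 795 scaled TPM with a median of 16.5, against a median of 15.9 in the comparison genes. The lowest estimated count of a whole gene in any library used was 153, over all its isoforms. A share rests on those of the reads that tell the isoforms apart, whose number is not known here. The median distance between replicates of a group was 0.0910, against 0.0525 in the comparison genes. Ripe and unripe fruit of a variety lay a median of 0.102 apart in ‘RB1’ and 0.0794 in ‘1B’. In the comparison genes these medians were 0.0664 and 0.0687. They are distances between group means, while that of replicates lies between single libraries, so the 2 kinds cannot be set beside each other.

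Just inside the minimum sum were TRINITY_DN2652_c1_g1, whose lowest group sum was 5.02 scaled TPM, and TRINITY_DN5414_c0_g1 with 5.06. Just outside were TRINITY_DN9878_c0_g1 with 4.78 and TRINITY_DN1890_c0_g1 with 4.55. At the limit for equal totals, the difference of log2(sum + 1), ‘1B’ minus ‘RB1’, was -0.97 in both TRINITY_DN2705_c0_g1 and TRINITY_DN462_c0_g1, which were kept. It was -1.004 in TRINITY_DN15652_c0_g1 and 1.03 in TRINITY_DN1580_c1_g1, which were not.

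**Figure D1:**
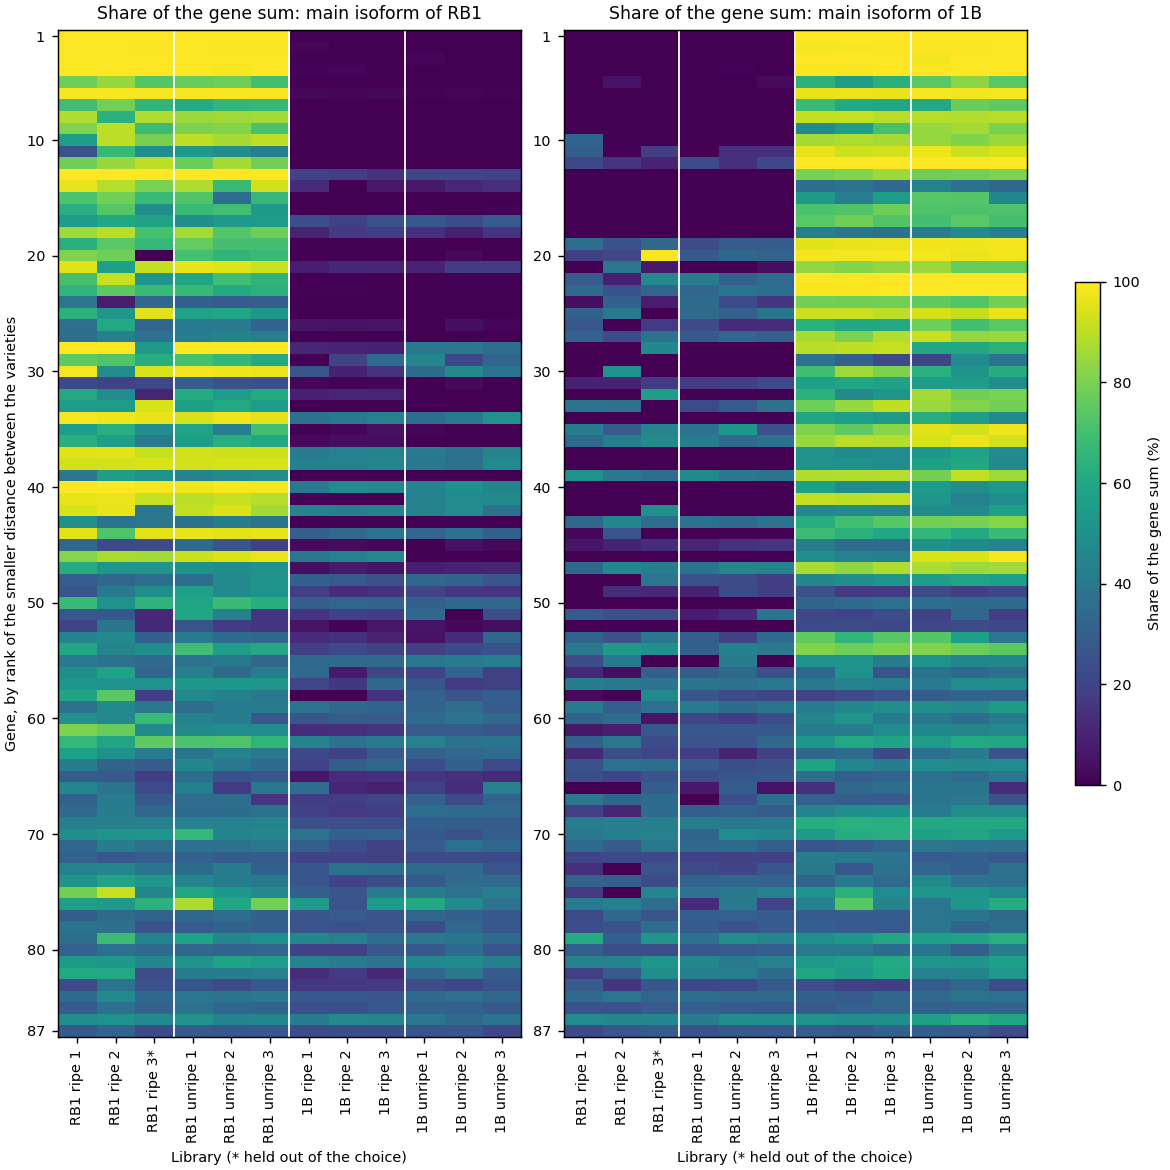
Share of the gene sum, in percent, of the main isoform of ‘RB1’ (left panel) and of ‘1B’ (right panel) in each of the 12 libraries (columns) for the 87 genes (rows, by rank of the smaller distance). The top rows change from near 100% to near 0 between the varieties, while the lower rows differ by little, and the column with an asterisk is the library held out of the choice.

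At the head of the ranking the exchange was nearly complete. TRINITY_DN314_c0_g1 had 2 isoforms, and its isoform i24 made up 100% of the gene sum in all 6 ‘RB1’ libraries, the held-out one included. In the 3 ripe ‘1B’ libraries the share of i24 was 0.214, 0 and 0%, and in the 3 unripe ones 0, 0.300 and 0%, with isoform i14 taking the rest. Its gene sum was 17.9 and 18 scaled TPM in the ripe ‘RB1’ libraries used and 15.3 to 17.4 in the unripe ones, against 31.4 to 34.6 and 29.5 to 33.3 in ‘1B’. Equal totals therefore means within the limit set, since on the deposited scaling this gene was higher in every ‘1B’ library than in every ‘RB1’ library. On the counts its log2 ratio of the sums, ‘1B’ over ‘RB1’, was 0.22 in ripe and 1.21 in unripe fruit.

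TRINITY_DN952_c0_g1, with 4 isoforms, was read at a higher level. Its isoform i1 took 99.8 and 99.9% of the sum in ripe ‘RB1’ fruit and 99.9, 99.3 and 99.5% in unripe ‘RB1’ fruit. In ripe ‘1B’ fruit i1 took 1.18, 0.334 and 0%, and it was at 0 in the 3 unripe ‘1B’ libraries. Isoform i3 was at 0 in every ‘RB1’ library and took 98.5 to 99.7% in ‘1B’. On the deposited scaling the gene sums overlapped between the varieties in ripe fruit, at 66.0 ± 3.75 scaled TPM in ‘RB1’ (SD, n = 2) and 66.2 ± 8.45 in ‘1B’ (SD, n = 3). In unripe fruit they were 55.4 ± 2.01 in ‘RB1’ and 77.9 ± 6.71 in ‘1B’ (SD, n = 3 each) and did not overlap. On the counts the log2 ratio of the sums, ‘1B’ over ‘RB1’, was -0.52 in ripe and 0.88 in unripe fruit.

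The next ranks behaved alike. TRINITY_DN407_c0_g2 consisted of isoform i1 alone in every ‘RB1’ library and of i2 alone in 5 of the 6 ‘1B’ libraries, with 1.93% of i1 in unripe replicate 1. TRINITY_DN7425_c0_g1 had 99.2 to 100% of isoform i2 in ‘RB1’ and 98.7 to 100% of i1 in ‘1B’. In TRINITY_DN3655_c0_g1, isoform i3 took 98.8 to 99.2% of the sum in the 6 ‘RB1’ libraries, against 0.932 to 2.29% in ‘1B’. These shares hardly moved between fruits of a variety.

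In other genes of the first 10 the main isoform had to share the sum with further isoforms, yet remained near 0 in the other variety. Isoform i7 of TRINITY_DN914_c0_g2 took 69.7 to 84.7% in ‘RB1’ and was at 0 in all 6 ‘1B’ libraries, where i5 took 56.2 to 82.6%. Isoform i8 of TRINITY_DN1896_c0_g1 took 61.5 to 78.8% in ‘RB1’ and 0 in ‘1B’, where i11 took 59.6 to 77.6%. In TRINITY_DN12050_c1_g1, isoform i17 took 84.9 to 88.1% in 5 of the 6 ‘RB1’ libraries but 64.4% in ripe replicate 2, and i23 took 88.5 to 91.2% in ‘1B’. TRINITY_DN12858_c0_g1 had 69.1 to 89.95% of isoform i12 in ‘RB1’. Its isoform i9 took 47.8, 56.1 and 71.0% in ripe ‘1B’ fruit, which is below the 84.7, 86.7 and 80.0% of unripe ‘1B’ fruit.

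TRINITY_DN207_c1_g1, with 26 isoforms, shows what a single library can do. Isoform i10 took 79.6 to 90.4% of the sum in 5 ‘RB1’ libraries but 55.6% in ripe replicate 1. Isoform i23, the main form of ‘1B’, took 32.3% there, although i23 was at 0 in the other 5 ‘RB1’ libraries. The same ripe replicate 1 had 30.3% of the ‘1B’ form of TRINITY_DN314_c1_g1, a gene chosen after its values were seen, and this form took no more than 18.5% in any other ‘RB1’ library.

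The 87 genes fell into several kinds by how much of each main isoform the other variety held. An isoform was called low in a variety at under 5% and present at 10% or more, in either case in every library used, with limits chosen after the values were seen. In 11 genes each main isoform was low in the other variety, in 11 ‘RB1’ fruit held both forms and ‘1B’ fruit only its own, and in 8 ‘1B’ fruit held both and ‘RB1’ fruit only its own. Both forms were present in both varieties in 24 genes, and 33 were mixed between libraries. The smaller distance was 0.751 to 0.999 in the first kind, 0.503 to 0.808 in the second, 0.371 to 0.792 in the third and 0.05 to 0.330 where both forms were present throughout.

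Where ‘RB1’ held both forms, the ‘1B’ form took about the same part of the sum in many genes. Its median share in ‘RB1’ ran from 21.1 to 40.6% over the 11 genes, with a median of 34.7%. TRINITY_DN627_c1_g1, 1 of the 5 genes with the highest sums, had 63.1 and 74.4% of isoform i10 in the ripe ‘RB1’ libraries used and 76.2, 70.4 and 70.6% in the unripe ones. Isoform i11 took 36.1, 25.2, 23.4, 28.9 and 28.6% in the same libraries. In ‘1B’, i10 took at most 0.702% and i11 from 95.4 to 98.4%. TRINITY_DN1727_c0_g1 and TRINITY_DN2491_c4_g1, with 2 isoforms each, followed the same form. The ‘1B’ isoform took 13.6 to 22.6% of TRINITY_DN1727_c0_g1 and 25 to 38.7% of TRINITY_DN2491_c4_g1 in the ‘RB1’ libraries used, and 98.9 to 100% of both in ‘1B’.

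Where ‘1B’ held both forms, the share of the ‘RB1’ form there was bounded in the same way. Its median share in ‘1B’ ran from 19.9 to 46.8% over the 8 genes, with a median of 42%. TRINITY_DN12794_c0_g2, named after its values were seen, had 98 to 99.8% of isoform i1 in ‘RB1’ and no counts of i3 there. In ripe ‘1B’ fruit i1 took 40.6, 48.3 and 47.7% and i3 56.8, 48.5 and 49.8%. In unripe ‘1B’ fruit i1 took 44.4, 50.2 and 46.0% and i3 55.3, 49.3 and 53.4%. Isoform i3 led in 5 of the 6 ‘1B’ fruits and i1 in unripe replicate 2, and the group means of both lie close together.

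**Figure D2:**
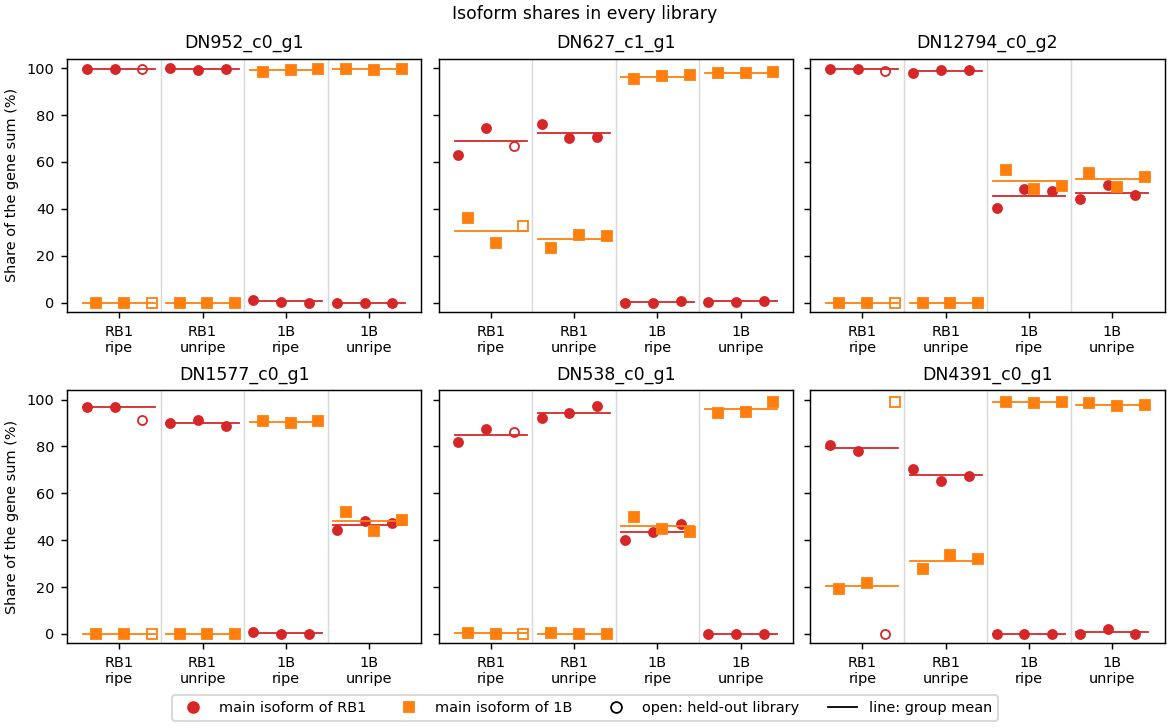
Share of the gene sum in percent (vertical axis) of both main isoforms in every library of 6 genes, by variety and stage. Circles are the main isoform of ‘RB1’, squares that of ‘1B’, open symbols the held-out library and lines the group means of the libraries used. The panels show a full exchange (DN952_c0_g1), 2 genes where a single variety holds both forms (DN627_c1_g1 and DN12794_c0_g2), 2 where ‘1B’ changes with ripening (DN1577_c0_g1 and DN538_c0_g1) and 1 where the held-out library goes against its label (DN4391_c0_g1).

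At the lower end of the ranking both varieties held the same isoforms in nearly the same parts. TRINITY_DN271_c0_g2, the last gene, had 27.2 to 31.4% of isoform i10 in the ‘RB1’ libraries used and 20.7 to 26.7% in ‘1B’. Its isoform i1 took 22.6 to 28.1% in ‘RB1’ and 23 to 30.9% in ‘1B’, so the libraries overlapped for i1 but not for i10. TRINITY_DN73_c0_g1 and TRINITY_DN1221_c0_g1, both among the 5 genes with the highest sums, differed by distances of 0.128 and 0.288 in ripe and 0.0790 and 0.142 in unripe fruit. Such genes meet the conditions because 2 isoforms of similar level exchange the first place.

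The gene with the highest sum was TRINITY_DN7691_c0_g1, with 621 to 990 scaled TPM in all but 1 of the libraries used and 548 in ripe ‘1B’ replicate 3. Isoform i8 took 95.7% in ripe ‘RB1’ replicate 1 and 96.1, 95.8 and 96.2% in the unripe ‘RB1’ libraries, but 72.4% in ripe ‘RB1’ replicate 2. That library alone among those of ‘RB1’ held a large part of isoform i10, 25.9%, against 0 to 2.12% in the others. In ‘1B’ i8 took 30.4 to 38% and i10 59.9 to 68.6%. Ripe replicate 2, the shallowest library, also stood apart in TRINITY_DN10025_c0_g1, a gene chosen after its values were seen, with 50.8% of the ‘1B’ form against 0 in the other ‘RB1’ libraries. Leaving this library out of the choice gave 79 genes, of which 73 were among the 87.

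In 41 of the 87 genes the main isoform of a variety was the highest in each of its libraries used, against 2056 of the 2245 comparison genes (91.6%). The share of the ‘RB1’ isoform was higher in all 5 ‘RB1’ than in all 6 ‘1B’ libraries in 66 genes, and that of the ‘1B’ isoform was higher in all ‘1B’ libraries in 67. Over the 3806 expressed genes with several isoforms this was so in 8.46 and 8.64%. Both shares were without overlap in 60 genes, against 3.65% of the 3806, and in all 43 genes with a smaller distance of at least 0.5. As the rule chose on these shares, nothing is read from the counts.

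The level of each main isoform was compared in the same way on the counts, by edgeR’s quasi-likelihood test with p adjusted after Benjamini and Hochberg, calling a change where the adjusted p was below 0.05 and the log2 fold change beyond 1.5 in size. In ripe fruit 51 of the 87 ‘RB1’ isoforms were lower in ‘1B’, beside 7.1% of all transcripts, and 32 of the 87 ‘1B’ isoforms were higher, beside 9.23%. In unripe fruit 35 were lower, beside 6.55%, and 48 were higher, beside 6.27%. These contrasts are those of the choice and are given as a description, and the gene sums themselves lay lower in ripe ‘1B’ fruit on the counts, as given above.

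Some of the main isoforms were not found at all in the other variety. The choice rests on this contrast, and the counts were not set beside other genes, so they are a description only. No count of the ‘RB1’ form was present in any of the 6 ‘1B’ libraries in 14 genes, where it took a median of 62.3% of the sum in ‘RB1’. Set against the gene’s lowest count in a single library, 3 counts in that library allow a share of up to 0.123 to 0.454%, with a median of 0.230%. No count of the ‘1B’ form was present in any of the 5 ‘RB1’ libraries used in 21 genes, with a limit per library, set in the same way, of 0.178 to 1.57% and a median of 0.559%. There it took a median of 56.1% of the sum in ‘1B’. In 3 genes both held, and in 55 neither. With fewer than 10 counts in place of 0, the numbers were 16, 24, 4 and 51. These limits cover counting error only, and an estimate of 0 may also come from the way reads shared between isoforms are assigned.

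The library labelled ‘RB1’ ripe replicate 3 took no part in the choice and was set against it. Its highest isoform was that of ‘RB1’ in 62 of the 87 genes (71.3%), that of ‘1B’ in 21 and another in 4. In the comparison genes its highest isoform was the shared main one in 2220 of 2245 (98.9%). The ‘RB1’ form led in all 16 genes with a smaller distance of at least 0.75, in 38 of 43 with at least 0.5 and in 24 of the 44 below that. By kind, it led in 11 of 11 genes where each form was low in the other variety, in 9 of 11 where ‘RB1’ held both, in 7 of 8 where ‘1B’ held both, in 14 of 24 where both were present throughout and in 21 of the 33 mixed genes. The part of the genes led by the ‘RB1’ form was higher where the distance between the varieties was larger. Distances and kinds both come from the shares that chose the genes. A further ‘RB1’ library is bound to follow them in part, so this order is a description from which nothing is read.

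By all isoforms of a gene, the held-out library lay nearer to an ‘RB1’ group than to either ‘1B’ group in 70 of the 87 genes (80.5%), against 56.2% of the comparison genes. It was nearer to unripe than to ripe ‘RB1’ fruit in 64 of the 87 (73.6%), and in 77.4% of the comparison genes. The comparison genes were kept for sharing a main isoform between the varieties, so nothing is read from 80.5% against 56.2%. The nearest group was unripe ‘RB1’ in 50 of the 87 genes, ripe ‘RB1’ in 20, unripe ‘1B’ in 11 and ripe ‘1B’ in 6. When each of the other libraries was left out of the choice in turn, 79.8 to 92.0% of the genes then chosen had their own variety’s isoform on top in it.

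**Figure D3:**
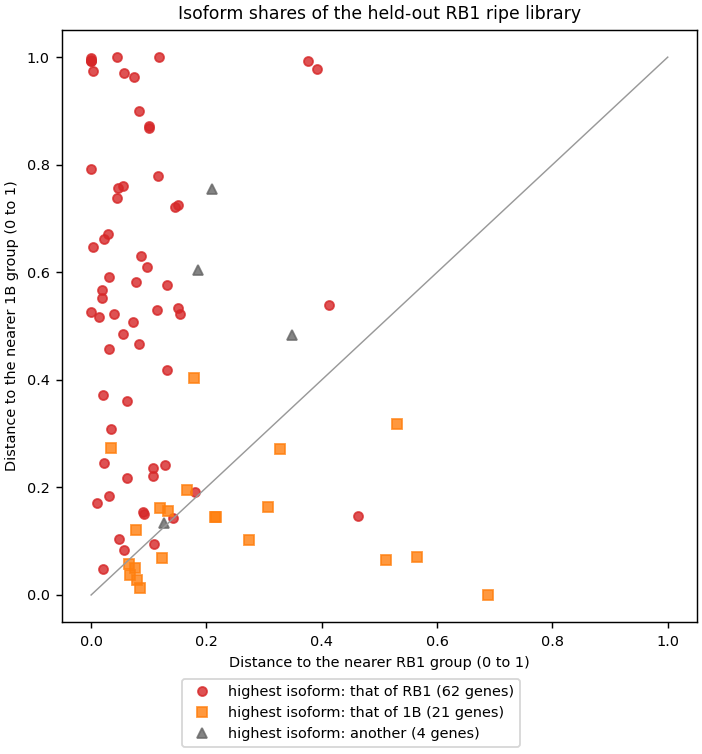
Distance of the isoform shares in the held-out ‘RB1’ ripe library to the nearer ‘RB1’ group (horizontal axis, 0 to 1) and to the nearer ‘1B’ group (vertical axis, 0 to 1), with 1 point per gene and the line of equal distance. Circles (62 genes) have the ‘RB1’ isoform on top, squares (21) that of ‘1B’ and triangles (4) another, and 70 points lie above the line.

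A few genes went the other way in that library. In TRINITY_DN4391_c0_g1 isoform i4 took 80.8 and 78.0% in the ripe ‘RB1’ libraries used and 70.2, 65.3 and 67.4% in the unripe ones, but 0% in the held-out library. Isoform i6 took 98.9% there, as in ‘1B’ fruit with 97.2 to 99.1%. Its gene sum was 172 and 154 scaled TPM in the ripe ‘RB1’ libraries used, 32.5 to 34.6 in the unripe ones and 18.1 in the held-out library, below all others. In TRINITY_DN10_c0_g2 isoform i6 took 48.3 to 61.6% in the ‘RB1’ libraries used and 10.4% in the held-out one. Isoform i3, at 47.5 to 86.2% in ‘1B’ and at most 0.225% in the other ‘RB1’ libraries, took 55.6% there.

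The other genes nearest to ripe ‘1B’ in this library were TRINITY_DN4618_c0_g1, TRINITY_DN6592_c0_g1 and TRINITY_DN1460_c1_g1. In TRINITY_DN4618_c0_g1 the held-out library had 39.8% of isoform i4 and 50.0% of i3. The ‘RB1’ libraries used had 86.2 to 96.6% and 0%, and the ‘1B’ libraries 37.4 to 48.2% and 46.3 to 56.6%. TRINITY_DN6592_c0_g1 was unsteady also within groups, as its isoform i5 took 35.7, 10.7 and 8.97% in the 3 ripe ‘1B’ fruits. In TRINITY_DN1460_c1_g1 isoform i31 took 39.3% in the held-out library, 0% in both other ripe ‘RB1’ libraries and 18 to 25.1% in unripe ‘RB1’ fruit. Of the 21 genes whose ‘1B’ form was without counts in the 5 ‘RB1’ libraries used, 19 were at 0 in the held-out library too. The exceptions were TRINITY_DN4618_c0_g1 and TRINITY_DN1856_c0_g1, where it took 50.0 and 46.4%. Both forms were thus near equal there, as in the ‘1B’ libraries of TRINITY_DN4618_c0_g1.

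The lengths of the paired isoforms entered the choice only through the abundances, in which a count is divided by a length. Dividing an isoform’s count by its abundance gives its effective length relative to other transcripts of that library, which is its length less about that of a sequenced fragment. The main isoforms of both varieties lay within 1.1-fold of each other in 58 of the 87 genes (66.7%), and more than 1.5-fold apart in 17, of which 13 were over 2-fold apart. In the comparison genes, the main and the second isoform were within 1.1-fold in 532 of 2238 (23.8%). The near-equal lengths went with the larger distances, at 16 of 16 genes with a smaller distance of at least 0.75, 38 of 43 with at least 0.5 and 20 of the 44 below. Of the 58 genes that were also chosen with shares of the counts 51 were within 1.1-fold, and of the 29 that were not 7 were. Among the 42 genes chosen with shares of the counts alone it was 20. All 13 genes over 2-fold apart had a smaller distance under 0.5.

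The ‘1B’ form was the longer in 42 genes and the shorter in 45. TRINITY_DN14847_c0_g1 had the largest difference, with a log2 ratio of lengths, ‘1B’ over ‘RB1’, of -2.92, and TRINITY_DN1221_c0_g1 had 2.28. In 11 of 11 genes where each form was low in the other variety the lengths were within 1.1-fold. This was so in 10 of 11 genes where ‘RB1’ held both, in 6 of 8 where ‘1B’ held both, in 12 of 24 where both were present throughout and in 19 of the 33 mixed genes. Whole-number estimates, to within 0.0005, were rare for the main isoforms in their own variety, at 0.418% of the values, against 0.211% for the main isoforms of the comparison genes and 33.4% of the values above 0 over all transcripts. A read that fits several isoforms is divided between them by the model, so a share here is an estimate that rests on the reads that tell the forms apart.

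**Figure D4:**
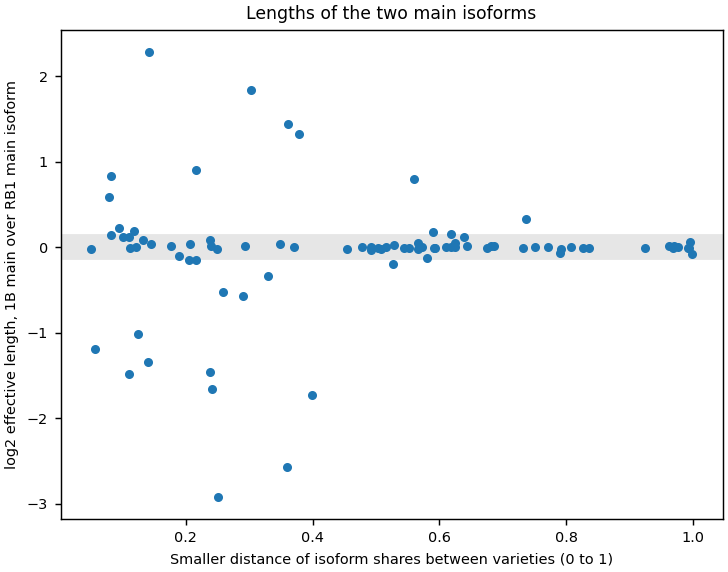
Log2 ratio of the effective lengths of both main isoforms, ‘1B’ over ‘RB1’ (vertical axis), against the smaller distance between the varieties (horizontal axis, 0 to 1), with 1 point per gene and the band of lengths within 1.1-fold in grey. The points with a distance above 0.5 lie in or near the band, and the 13 genes over 2-fold apart all lie below 0.5.

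Ripening was compared within each variety, which the choice used only in asking for the same main isoform at both stages and a minimum sum. By edgeR’s quasi-likelihood test on gene sums, with the adjusted p and fold given above, 3 of the 87 genes were higher and 1 lower in ripe ‘RB1’ fruit. Over all genes tested, 10.2% were higher and 9.05% lower, and over the comparison genes, held to the same limits, 1.43 and 0.757%. The comparison genes met the same limits on totals and on the minimum sum, so their share is the closer background. At any fold, 42 genes were higher and 13 lower with an adjusted p under 0.05. Of all 26265 genes tested 7423 were higher and 6173 lower, which is 51.8% in either direction. The comparison genes were not counted at any fold. The median log2 fold change of the 87 genes was 0.19. In bulk samples a change in the amount of RNA per cell and a change in the number of cells that carry it cannot be told apart.

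The gene that rose most was TRINITY_DN4391_c0_g1, with a log2 fold change of 2.42 ± 0.11 (SE) and an adjusted p of 1.39e-15 in edgeR. Its sums of 172 and 154 scaled TPM in ripe fruit lay above those of 34.6, 34.4 and 32.5 in unripe fruit. TRINITY_DN4536_c0_g1 rose by 1.64 ± 0.11 (adjusted p = 4.22e-12, edgeR), from 17.7, 14 and 14 to 36.5 and 53.1 scaled TPM. TRINITY_DN3664_c0_g1 rose by 1.53 ± 0.10 (adjusted p = 4.21e-12, edgeR), from 22 to 26.1 in unripe fruit to 68.7 and 64.0 in ripe fruit. In TRINITY_DN4659_c0_g1 the gene sum fell by 1.74 on the log2 scale (SE 0.12, adjusted p = 4.02e-12, edgeR), from 36.5 to 45.7 scaled TPM in unripe fruit to 9.71 and 13.6. Stages did not overlap in any of these genes. The call of TRINITY_DN3664_c0_g1, close to the fold limit, held in 9 of 16 alternatives, with log2 fold changes of 1.34 to 1.75. That of TRINITY_DN4536_c0_g1 held in 13, and those of TRINITY_DN4391_c0_g1 and TRINITY_DN4659_c0_g1 in 15 each. With ‘RB1’ ripe replicate 3 kept, none of the 87 passed in either direction, and at an unadjusted p under 0.05 with the same fold 1 was higher and 0 lower.

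In ‘1B’ none of the 87 genes was higher and 8 were lower in ripe fruit by the same test, beside 15.7 and 10.2% of all genes and 0.134 and 9.18% of the comparison genes. The largest increase was 1.41, in TRINITY_DN324_c1_g1, so no gene passed the fold upward at an unadjusted p either, and 0 did so in DESeq2. At any fold 10 genes were higher and 69 lower. Of all 28998 genes tested 10400 were higher and 9002 lower at any fold, which is 66.9% in either direction. The comparison genes were not counted at any fold. The balance of the 87 genes turned with the scaling. With TMM factors of the counts the median log2 fold change was -0.70 in the 87 genes, -0.61 in the comparison genes and 0.22 in all genes. With library sizes as the only scaling it was 0.37, 0.47 and 1.28, with 54 of the 87 higher and 12 lower at any fold, and 7 higher and 0 lower past the fold. In limma on log2(deposited value + 1) it was 0.09, 0.17 and 0.30, with 33 higher and 26 lower. Relative to all genes, 77 of the 87 lay below the median with TMM factors of the counts and 62 with the deposited scaling. Other scalings of the same counts shift all genes nearly alike, so that they also gave 77 adds nothing. The median of the comparison genes lay below that of all genes under each scaling too. In ‘RB1’ the median over the 87 genes was above 0 under all 4 scalings, from 0.04 to 0.41.

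The gene that fell most in ‘1B’ was TRINITY_DN2559_c0_g1, with sums of 16.9, 12.3 and 19.1 scaled TPM in ripe and 62.4, 50.5 and 56.1 in unripe fruit. Its log2 fold change was -2.52 ± 0.14 (SE, adjusted p = 6.38e-10, edgeR), and it was -1.46 with library sizes only and -1.76 in limma on the deposited values, so the direction held. TRINITY_DN2491_c4_g1 had 7.37, 8.28 and 22.9 scaled TPM in ripe and 30.9, 29.6 and 26.1 in unripe fruit, with a log2 fold change of -1.99 ± 0.31 (adjusted p = 4.60e-05, edgeR). Ripe replicate 3 stood apart from the other ripe fruits there. TRINITY_DN1727_c0_g1 had 20.7, 16.6 and 20.7 against 41.7, 34.1 and 36.8 scaled TPM and a log2 fold change of -1.77 ± 0.11 (adjusted p = 1.36e-09, edgeR). Both were lower with library sizes only too, by -0.94 and -0.71, without passing the fold. The other 5 genes called lower had log2 fold changes of -1.68 to -1.51 with TMM factors. With limma on the deposited values, TRINITY_DN324_c1_g1 was called higher at 2.02, with 27.5, 29.4 and 22.3 scaled TPM in ripe against 5.68, 5.57 and 5.91 in unripe ‘1B’ fruit.

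**Figure D5:**
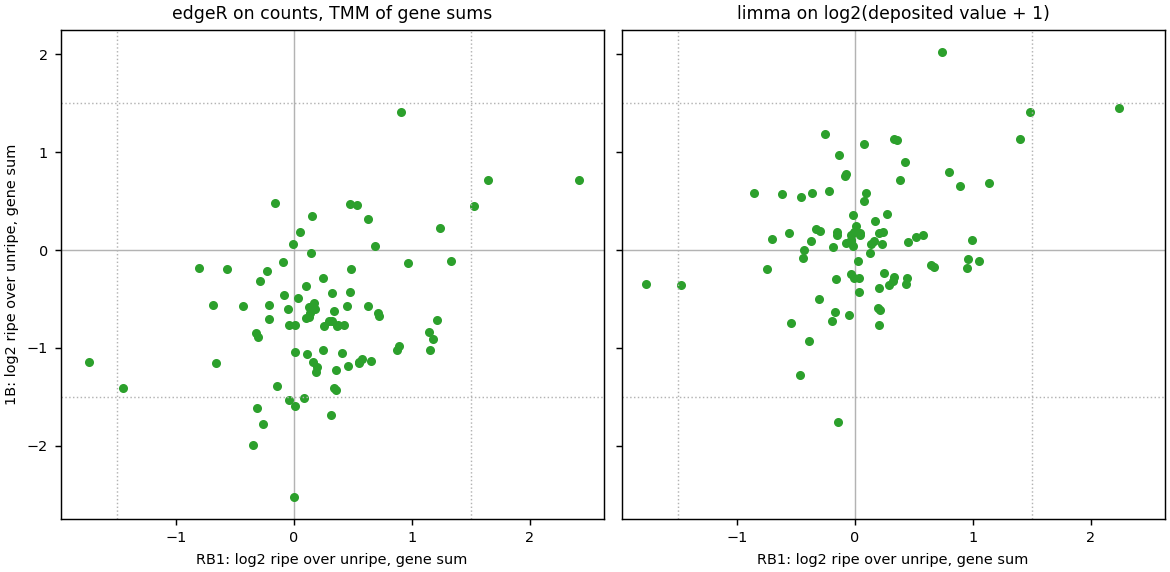
Log2 fold change of the gene sum, ripe over unripe, in ‘RB1’ (horizontal axis) and ‘1B’ (vertical axis), with 1 point per gene, in edgeR with TMM factors of the counts (left) and in limma on log2(deposited value + 1) (right). Solid lines mark 0 and dotted lines the threshold of 1.5. In ‘1B’ most points lie below 0 on the left, with a median of -0.70, and on both sides of 0 on the right, with a median of 0.09.

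Isoform usage with ripening was tested within each variety by edgeR’s test for differential usage at the gene level, adjusted over all genes with 2 or more isoforms past the count filter. In ‘RB1’ 10 of 82 genes tested changed usage (12.2%), beside 8.36% of all genes tested and 8.07% of the comparison genes. In ‘1B’ 23 of 81 did (28.4%), beside 25.9 and 29.9%. In this form both shares are near their backgrounds. It called 4 genes in both varieties, a count that was not taken over other genes, so nothing is read from it. The Simes form of the test, added after the data were seen because the gene-level form called too many unchanged genes in simulated data, gave 6 genes in ‘RB1’ (7.32%, beside 2.76% of all genes and 2.65% of the comparison genes) and 16 in ‘1B’ (19.8%, beside 14.7 and 15.1%). The count in ‘RB1’ was 1 with ripe replicate 3 kept and 6 without ripe replicate 2. Of the 3765 tested genes that had several isoforms and reached the minimum sum, the gene-level form called 11.6% in ‘RB1’ and 35.4% in ‘1B’. The main isoform was chosen to be steady, and both forms called some of the genes in each variety. How many changed cannot be read from the gene-level counts, since that form called too many unchanged genes in simulated data.

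In ‘1B’ some of the changes were large. Isoform i3 of TRINITY_DN538_c0_g1, the main form of ‘RB1’, took 40.3, 43.6 and 46.9% of the sum in ripe ‘1B’ fruit and had no counts in the 3 unripe ‘1B’ fruits (adjusted p = 8.71e-14, edgeR). Isoform i8 fell from 94.1 to 98.9% in unripe fruit to 43.3 to 49.8% in ripe fruit. TRINITY_DN1577_c0_g1, named after its values were seen, went the other way. Isoform i1, the form of ‘RB1’, took 44.3, 48.1 and 47.4% in unripe ‘1B’ fruit but 1.05, 0 and 0% in ripe ‘1B’ fruit (adjusted p = 6.20e-06, edgeR). Its isoform i2 rose from 44 to 52.0% to 89.8 to 90.9%. TRINITY_DN1856_c0_g1, also named after its values were seen, had 40.5, 40.2 and 35.9% of i1 in unripe and 10.2, 9.72 and 8.92% in ripe ‘1B’ fruit (adjusted p = 1.07e-05, edgeR), beside 100% in the 5 ‘RB1’ libraries used. In each of these genes unripe and ripe fruit did not overlap.

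The smallest p-values in ‘1B’ also included genes whose main forms moved little. TRINITY_DN73_c0_g1 had an adjusted p of 2.04e-22, with 24.2 to 27.6% of isoform i24 in ripe and 28.4 to 30.7% in unripe fruit, and TRINITY_DN7689_c0_g1 had 4.50e-09. TRINITY_DN7689_c0_g1 had 57.5, 45.6 and 42.1% of isoform i5 in ripe and 49.6, 48.0 and 48.3% in unripe ‘1B’ fruit, which overlap.

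In ‘RB1’ the smallest adjusted p for usage was 2.44e-08, for TRINITY_DN14847_c0_g1. Its isoform i19 took 37.1 and 48.0% in ripe and 35.9, 40.8 and 40.9% in unripe ‘RB1’ fruit, so the shares of this form overlapped. TRINITY_DN73_c0_g1 had an adjusted p of 0.000319 and TRINITY_DN7691_c0_g1 of 0.000351, the latter with ripe replicate 2 apart from the rest as given above. In the Simes form the adjusted p of TRINITY_DN73_c0_g1 was 0.704. All other p-values for usage of single genes are of the gene-level form, with the limit given above. In ‘RB1’ the call held in 10 of 11 alternatives for TRINITY_DN14847_c0_g1 and TRINITY_DN7691_c0_g1 each, and in 8 for TRINITY_DN73_c0_g1.

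The study listed by name flavour-related transcripts that differed between the varieties in ripe fruit. That list was chosen on these same samples. None of the 87 genes is among them. Of the 77 assembled genes on this list, 34 were expressed in all groups with 2 or more isoforms, 13 had equal totals, and 12 of these kept 1 main isoform from unripe to ripe fruit in each variety. In all of these 12 it was the same in both varieties. Among all genes that reached this step it differed in 3.73%, so nothing is read from its absence in 12. A list of differing transcripts may also hold fewer genes with equal totals, which were 2778 of all 3806 expressed genes. Of the genes on the list below the minimum sum, the beta-glucosidase BoGH3B-like gene TRINITY_DN3108_c0_g1 had isoform i2 on top in ‘RB1’ and i11 in ‘1B’ at both stages, with a lowest group sum of 0.502 scaled TPM. The beta-amylase 7 gene TRINITY_DN6052_c0_g1 had i13 and i15, with a lowest group sum of 1.14. Among the 12 genes, TRINITY_DN1426_c0_g1 came nearest to an exchange of parts by the smaller distance. It is named as the H isozyme of alpha-glucan phosphorylase, which releases glucose 1-phosphate from starch and other glucans. Its isoform shares lay 0.435 apart in ripe and 0.355 in unripe fruit, but isoform i14 led in all 4 groups with 21.6 to 27.5% of the sum. The long chain acyl-CoA synthetase 4-like gene TRINITY_DN6343_c0_g1, of a family that activates fatty acids, had 95.3 and 95.7% of its main isoform in ripe and unripe ‘RB1’ fruit and 61.0 and 55.3% in ‘1B’. The phosphoglycerate mutase gene TRINITY_DN1285_c2_g1, an enzyme of glycolysis, had 58.8 and 69.2% in ‘RB1’ and 96.1 and 98.2% in ‘1B’. In the benzyl alcohol O-benzoyltransferase-like gene TRINITY_DN4842_c0_g1, whose family makes benzoate esters, the shares lay only 0.117 apart in ripe and 0.00395 in unripe fruit.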

How the data were processed

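Fruit flesh of ‘RB1’ and ‘1B’ at the unripe and the ripe stage was sequenced as RNA, with 3 fruits per group. Expected counts were deposited without normalization. For these the authors trimmed reads with bbduk and Trimmomatic 0.40, assembled both varieties into 1 transcriptome with Trinity 2.11.0 and estimated transcripts with Salmon 1.5.2. The signal values are TPM from Salmon to which the authors applied TMM scaling. Transcripts were summed into genes by the identifier without its isoform suffix.

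The 87 genes, the lists and the limits were chosen with earlier results of these data known. Only 87 genes met the rule, so ranks near 200 do not exist and genes at its limits are given in their place. Genes were named as the first 10 in rank, the 5 with the highest sums, the 3 called genes with the largest change in each direction and the 3 with the smallest usage p per variety, the 5 nearest to ripe ‘1B’ in the held-out library and any on the study’s list; other genes are said to be chosen after their values were seen.

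Counts were rounded and tested under R 4.3.3 by the quasi-likelihood test of edgeR 4.0.16, after filterByExpr and TMM scaling, and usage with diffSpliceDGE. The SE of a log2 fold change is its size divided by the square root of the F value of that test. DESeq2 1.42.0 and limma 3.58.1 were alternatives, as were other scalings, filters, pseudocounts, a replicate block and leaving out each library. The steps were tested on simulated data, where the gene-level usage test called more unchanged genes than its threshold allows and its Simes form fewer. Shares and lengths were computed in Python 3.11.15 with pandas 2.3.3. Total counts per library ran from 10949263 to 60100478, which limits the precision of the shallowest library. No transcript sequences were used here, so none are shown.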

Additional observations from a re-analysis of the deposited data

Results flagged for a closer look

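In 8 of the genes named above, ripe and unripe fruit did not overlap in either variety and differed in opposite directions. This held for the gene sum or for the share of a main isoform. The count was not taken over other genes, and several of these genes were named for their changes with ripening. It is therefore a description from which nothing is read. The difference between the varieties was not tested, and ‘RB1’ ripe fruit counts 2 libraries.

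The mean gene sum of TRINITY_DN952_c0_g1 was 66.0 scaled TPM in ripe and 55.4 in unripe ‘RB1’ fruit, against 66.2 and 77.9 in ‘1B’. That of TRINITY_DN407_c0_g2 was 26.3 and 13.1 in ‘RB1’ against 13.9 and 16 in ‘1B’. In TRINITY_DN627_c1_g1 the sums were 299 and 262 in ‘RB1’ and 223 and 338 in ‘1B’, and in TRINITY_DN14847_c0_g1 13.6 and 20.7 in ‘RB1’ and 23.5 and 20.8 in ‘1B’. TRINITY_DN6592_c0_g1 had sums of 9.96 and 11.2 in ‘RB1’ and of 14.2 and 12.7 in ‘1B’. All sums are on the deposited scaling, on which these directions rest. Of the 26 named genes not called in ‘1B’, 16 changed the sign of their ripening difference under some alternative.

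Shares moved apart in 3 genes. The ‘1B’ isoform of TRINITY_DN4391_c0_g1 took 20.5% in ripe and 31.2% in unripe ‘RB1’ fruit, and 98.8 and 97.8% in ‘1B’. The ‘RB1’ isoform of TRINITY_DN4659_c0_g1 took 55.1 and 42.7% in ‘RB1’ and 23.7 and 32.6% in ‘1B’. That of TRINITY_DN538_c0_g1 took 84.7 and 94.5% in ‘RB1’ and 43.6 and 0% in ‘1B’.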

How the results depend on the processing

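With a minimum sum of 1 scaled TPM 188 genes met the conditions, and with 10 it was 51, all among the 87. Leaving out each library gave 79 to 94 genes, of which 73 to 84 were among the 87. With shares of the expected counts it was 100 genes, 58 of them among the 87, and in 66 of the 87 genes the held-out library then had the highest isoform of ripe ‘RB1’ fruit on top. Of the gene sums in ‘RB1’ (3 higher and 1 lower), a filter at 1 CPM left 1 higher and 2 lower, limma with a pseudocount of 1 left 1 higher, no fold threshold gave 42 and 13, the replicate block gave 2 lower and keeping ripe replicate 3 gave 0 and 0; leaving out a library gave 2 to 3 higher and 1 to 2 lower, with 2 lower without unripe replicate 3. Usage in ‘RB1’ (10 genes) was called in 3 with the replicate block, 1 with ripe replicate 3 kept, 6 in the Simes form and 6 to 14 without a library, with 6 without ripe replicate 2. In ‘1B’ (0 higher and 8 lower), no filter gave 1 and 5, the filter at 1 CPM 1 and 3, limma 1 and 1 with a pseudocount of 1 or 0.1, no fold threshold 10 and 69 and library sizes only 7 and 0; leaving out a library gave 0 to 0 and 6 to 10. Usage in ‘1B’ (23 genes) was called in 39 by limma with voom, 18 with the replicate block and 19 to 26 without a library.

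Over all genes, 2691 were higher and 2376 lower in ripe ‘RB1’ fruit, against 1387 and 1151 with the filter at 1 CPM, 728 and 493 in limma with a pseudocount of 1, 7423 and 6173 at any fold, 93 and 203 with ripe replicate 3 kept and 1787 higher without ripe replicate 1. In ‘1B’ 4540 were higher and 2952 lower, against 8415 higher with no filter, 2421 and 1756 with the filter at 1 CPM, 12594 and 1086 with library sizes only, 1232 and 618 in limma with a pseudocount of 1, 1208 lower with 0.1 and 10400 and 9002 at any fold. Usage changed in 922 genes in ‘RB1’, against 304 in the Simes form, 24 with the block, 100 with ripe replicate 3 kept, 1396 without ripe replicate 1 and 585 without unripe replicate 2. In ‘1B’ it changed in 2910 genes, against 1654 in the Simes form and 1858 with the block. The gene sums of the 4 named genes called in ‘RB1’ and the 4 in ‘1B’ kept their sign under every alternative. Of the 26 other named genes in each variety, none called, 9 changed sign under some alternative in ‘RB1’ and 16 in ‘1B’, all 16 with library sizes only and 11 in limma with a pseudocount of 1. Fruits with the same number did not deviate together, so the numbers pair no fruits. The library sizes alone and the Simes form were added after the data were seen. Depth limits the shares most in ‘RB1’ ripe replicate 2, and the cause of these changes was not tested.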
